A study of Mus musculus with 16 samples.

Results

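The genes described here are the mouse receptors for immunoglobulin G: the activating receptors Fcgr1, Fcgr3 and Fcgr4, their shared signalling chain Fcer1g, the inhibitory receptor Fcgr2b and the neonatal receptor Fcgrt. They were taken by gene symbol from the array's annotation, which gave 8 probes for these 6 genes among 16593 named genes. Each gene had 1 probe except Fcgr2b, which had 3. All 8 probes were above background on all 16 arrays, so every member was tested.

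The study profiled microglia, the resident macrophages of the brain, from groups that include mice in which the deacetylase gene Sirt1 can be deleted. Cells that bound antibody to CD11b were collected on magnetic beads after myelin had been removed, and their total RNA was hybridised to Illumina arrays. TAU/LysM and TAU had 2 arrays each, and the labels give neither the age of these mice nor the alleles behind the names. From the names alone, TAU/LysM is counted below as Cre-carrying and TAU as Cre-negative. Whether the TAU and TAU/LysM mice carry floxed Sirt1 is not said. Old LysM-Cre/SIRT1F/F and old SIRT1F/F mice had 3 arrays each, as did young LysM-Cre/SIRT1F/F and young SIRT1F/F mice. Both of these genotypes carry floxed Sirt1, and LysM-Cre/SIRT1F/F mice, called LysM-Cre below, also carry a Cre recombinase driven from Lyz2, a lysozyme gene of myeloid cells. The background of all 6 groups is given as mixed BL6 and 129/Sv, and whether replicates come from different animals is not said; the p-values reflect only how much these samples vary, which could be technical.

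Antibody bound to a target is read by these receptors. When IgG crosslinks an activating receptor, Src family kinases phosphorylate the tyrosine motifs (ITAMs) of Fcer1g, the kinase Syk docks there, and actin-driven uptake follows. Fcgr2b instead carries an inhibitory motif (ITIM) that recruits the phosphatase encoded by Inpp5d, while Fcgrt, paired with beta-2-microglobulin, protects IgG from breakdown inside cells.

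Levels below are normalized log2 intensities, and a probe's level is compared only with itself. A difference passed the test, and is called higher or lower, where limma's p-value adjusted over all 16344 tested probes (10986 genes) by the Benjamini-Hochberg method was under 0.05. Errors of differences are SE, and intervals are 95%. Over the 16 arrays 54.9% to 57.5% of probes were above background, the median intensity was 203 to 284, and arrays of the same group correlated at 0.984 to 0.994. The Sirt1 probe did not separate the genotypes (Cre-carrying minus Cre-negative 0.05 ± 0.08, adjusted p = 0.762); where it lies relative to the floxed part was not available here, so it does not check the labels. Of 8 microglia markers on the array, 8 were above background on all 16 arrays. So were markers of other cells: 10 of 10 for neutrophils, 8 of 8 for border-associated macrophages, 5 of 6 for monocytes, 3 of 7 for B cells, 6 of 7 for endothelium, 5 of 5 for choroid plexus, 3 of 7 for oligodendrocytes, 3 of 6 for astrocytes and 1 of 8 for T and NK cells. Ccr2 of monocytes, Pax5 of B cells and Cd3e of T cells were above it on 0 arrays. In 5 arrays, Xist or Eif2s3y was near background and the other was not, and 11 arrays had both transcripts. In such bulk samples, fewer cells of a type and less RNA per cell cannot be told apart.

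Fcgr1, which encodes the high-affinity receptor able to bind single IgG molecules, was the member whose level passed a test. Its promoter is shown because this was the receptor that differed, and that of Fcgr4 because Fcgr4 is an activating receptor using the same chain whose level did not pass any test. Both are RefSeq sequences of GRCm38.p6 from 250 bases before to 50 bases after the start of the gene, Fcgr1 at chr3:96293920-96294219 on the minus strand and Fcgr4 at chr1:171018676-171018975 on the plus strand. Capitals mark matches on either strand to TTCNNNGAA, the interferon gamma activated site, to GAGGAA, the core bound by the macrophage factor PU.1, and to GAAA and GAAA 2 bases apart, a form of the interferon response element.
Fcgr1: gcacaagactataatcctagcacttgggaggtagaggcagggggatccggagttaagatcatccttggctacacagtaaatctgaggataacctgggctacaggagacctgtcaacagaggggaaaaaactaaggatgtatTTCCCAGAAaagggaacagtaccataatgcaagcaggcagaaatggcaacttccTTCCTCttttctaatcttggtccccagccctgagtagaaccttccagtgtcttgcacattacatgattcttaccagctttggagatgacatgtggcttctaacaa
Fcgr4: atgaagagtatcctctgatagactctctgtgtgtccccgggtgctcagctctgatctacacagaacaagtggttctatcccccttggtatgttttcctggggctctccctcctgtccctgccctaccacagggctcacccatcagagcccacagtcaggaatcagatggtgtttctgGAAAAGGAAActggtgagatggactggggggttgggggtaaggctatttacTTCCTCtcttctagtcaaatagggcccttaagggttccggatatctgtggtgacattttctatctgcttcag
The Fcgr1 window held 1 match to TTCNNNGAA, at -109 to -101 from the start, and 1 to GAGGAA, read on the other strand as TTCCTC, at -55 to -50. The Fcgr4 window held no TTCNNNGAA, 1 TTCCTC at -22 to -17 and 1 pair of GAAA, as GAAAAGGAAA, at -73 to -64. No matches overlapped. Of 32851 mouse promoters of this length, 8.3% held TTCNNNGAA, 28.3% GAGGAA and 3.44% the spaced GAAA pair. Of the windows for the other members, those of Fcgr3 held GAGGAA and those of Fcer1g, Fcgr2b and Fcgrt held none of these letters. In this assembly Fcgr2b, Fcgr4 and Fcgr3 are consecutive protein-coding genes on chromosome 1, Fcer1g lies on the same chromosome past 7 others, Fcgr1 is on chromosome 3 and Fcgrt on chromosome 7.

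Fcgr1 was lowest in the TAU groups. Its level was 12.08 and 12.08 in TAU/LysM and 11.90 and 12.01 in TAU. In old mice it was 12.09, 12.36 and 12.34 with LysM-Cre and 12.20, 12.17 and 12.58 in SIRT1F/F. In young mice it was 12.66, 12.58 and 12.61 with LysM-Cre and 12.60, 12.59 and 12.72 in SIRT1F/F. The 4 TAU arrays were thus below all 12 others, as for 2.77% of tested probes, and the young arrays lay close together, with 1 old SIRT1F/F array (replicate 3) in their range and the other 5 old arrays between them and TAU. Ordered by group mean, young SIRT1F/F was highest and TAU lowest, and every neighbouring pair of groups overlapped except old LysM-Cre and TAU/LysM, and TAU/LysM and TAU.

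**Figure D1:**
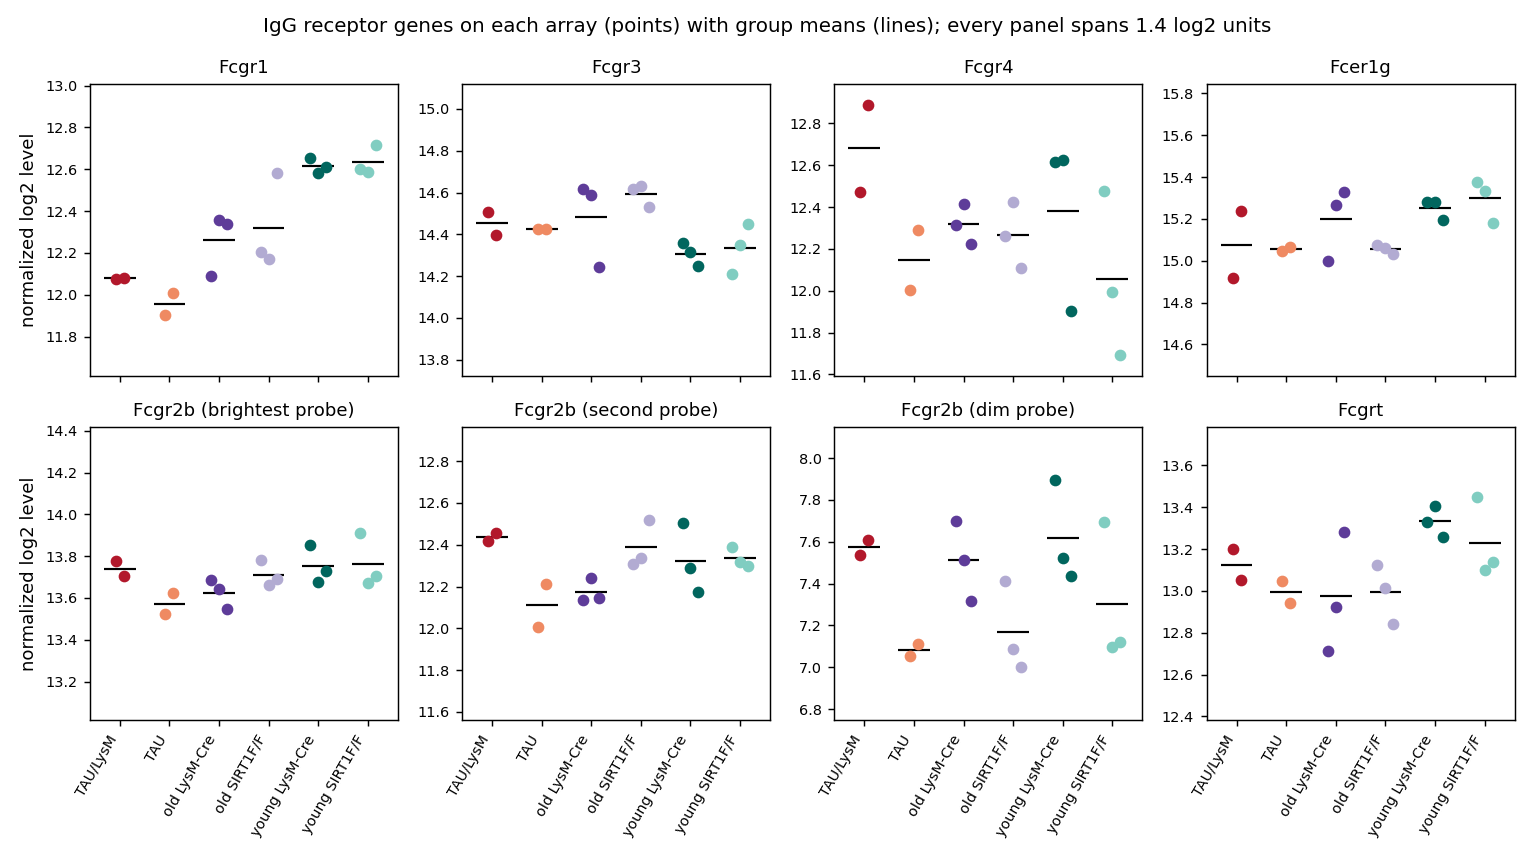
Normalized log2 level (vertical axes, each spanning 1.4 units) of the 8 probes in the 6 groups (horizontal axis); points are arrays, lines group means. Fcgr1 lies between 11.90 and 12.08 on the 4 TAU and TAU/LysM arrays, below every other array, and the other panels show groups that mostly overlap.

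In TAU, Fcgr1 was 0.68 ± 0.13 log2 units lower than in young SIRT1F/F, 0.623 times the level (interval -0.96 to -0.41, adjusted p = 0.00513). In TAU/LysM it was 0.54 ± 0.13 lower than in young LysM-Cre, 0.689 times the level (interval -0.81 to -0.26, adjusted p = 0.0236). The same 1 of 8 member probes was called in each comparison, where 11.9% of all tested probes were called (5.64% lower) in TAU and 7.27% (3.81% lower) in TAU/LysM. The groups did not overlap for Fcgr1 in either comparison, as was so in the lower direction for 25.9% and 23.1% of tested probes. Averaged over genotypes, a comparison chosen after these values had been seen, TAU groups were 0.61 ± 0.09 lower than young groups (adjusted p = 6.05e-04) in a contrast that called 25% of tested probes and 13.9% lower. Without TAU array 1 the difference in TAU was -0.63 with adjusted p = 0.0798, and in TAU/LysM the call was lost without young LysM-Cre array 1 or 3 (adjusted p = 0.0626 and 0.0602) or without TAU/LysM array 1 or 2 (0.124 and 0.118); the average kept its call in 16 of 16 such fits. TAU/LysM minus young LysM-Cre also lost its call without the 5 arrays low in Xist or Eif2s3y. That fit kept 1 array in each of these groups, so the loss cannot be told apart from the smaller number of arrays.

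Against old mice the differences in Fcgr1 did not pass. They were -0.37 ± 0.13 for TAU minus old SIRT1F/F (adjusted p = 0.143) and -0.18 ± 0.13 for TAU/LysM minus old LysM-Cre (adjusted p = 0.553), with 3.99% and 2.26% of tested probes called; without old SIRT1F/F array 3 the first was -0.23. No member probe was called in either, where 2 and 1 of the 8 had an unadjusted p under 0.05, against 17% and 15.6% of all tested probes. Averaged over genotypes, TAU groups minus old groups was -0.27 ± 0.09 (adjusted p = 0.0786), with 8.71% of tested probes called; it passed on the deposited values (0.0424) and with trended and robust variances (0.0376). The age of the TAU mice is not labelled, so their comparison with either age cannot be told apart from a difference in age.

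Several microglia markers were also lower. In TAU groups against young, 0 of the 8 were higher and 5 lower, where 13.9% of tested probes were lower, namely Tmem119 (-0.73 ± 0.07), Sall1 (-0.65 ± 0.09), Siglech (-0.42 ± 0.06), Cx3cr1 (-0.33 ± 0.08) and Gpr34 (-0.24 ± 0.08). The mean of the 8, each set to its own average over all arrays, was -0.41 to -0.40 in TAU/LysM and -0.18 to -0.13 in TAU, against -0.10 to 0.09 in young LysM-Cre and 0.02 to 0.26 in young SIRT1F/F. Fcgr1 had its lowest group mean in TAU, but its TAU/LysM minus TAU difference of 0.12 ± 0.14 did not pass (adjusted p = 0.765, 2 arrays a group). The marker mean was lowest in TAU/LysM. With that mean as a covariate, added after the values were seen, the Fcgr1 difference was -0.59 in TAU (adjusted p = 0.0878), -0.43 in TAU/LysM (0.244) and -0.51 for the average (0.100). Oligodendrocyte markers were high in TAU, with a mean of 2.63 to 3.06, and not in TAU/LysM, with -0.55 to -0.50, against -0.42 to 0.45 in young SIRT1F/F. With the oligodendrocyte mean as a covariate the Fcgr1 difference was -0.85 in TAU (adjusted p = 0.684). That mean was far higher on the TAU arrays than on all others. The fit could therefore hardly separate it from the TAU group, and the lost call decides nothing. Choroid plexus markers were at 1.27 to 1.69 in TAU and -0.75 to -0.03 in TAU/LysM, against -0.82 to 0.16 in young LysM-Cre and -0.79 to -0.09 in young SIRT1F/F. In TAU groups against young, 4 of 5 choroid plexus, 4 of 6 endothelial and 3 of 6 astrocyte markers were higher, with 1 astrocyte marker lower, and 3 of 5 B cell markers were lower. With an array left out the choroid plexus count was 2 to 4, the endothelial 1 to 4, the astrocyte 2 to 4 and the B cell 1 to 3. In TAU/LysM, TAU, young LysM-Cre and young SIRT1F/F, border-associated macrophage markers were at 0.53 to 0.57, -0.05 to 0.09, -0.08 to 0.30 and -0.29 to 0.42. In the same order, dendritic and mast cell markers were at 0.41 to 0.73, 0.15 to 0.17, -0.26 to 0.03 and -0.25 to 0.03. Neutrophil markers were at -0.26 to -0.06, -1.13 to -0.49, -0.03 to 0.77 and -0.80 to 0.04. Monocyte markers were at -0.16 to 0.21, -0.78 to -0.38, -0.24 to 0.47 and -0.82 to 0.17. The part of these cell types in the Fcgr1 difference was not tested.

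With age, Fcgr1 was lower by 0.35 ± 0.11 in old than in young LysM-Cre and by 0.32 ± 0.11 in old than in young SIRT1F/F, and neither passed (adjusted p = 0.138 and 0.204). No member was called in these comparisons, which called 1.71% and 1.27% of tested probes, and 2 and 3 of the 8 probes had an unadjusted p under 0.05, against 17.4% and 14.7% of tested probes. The average over genotypes, added after the values were seen, gave -0.34 ± 0.08 (adjusted p = 0.0198) and was the 1 call among the 8 member probes, where 9.47% of tested probes were called and 4.65% lower. That call was lost without young SIRT1F/F array 3, old SIRT1F/F array 1 or 2 or old LysM-Cre array 1 (adjusted p up to 0.0554). It was also lost without the 5 arrays low in Xist or Eif2s3y, which left 1 array each in young LysM-Cre and old SIRT1F/F. The age difference in LysM-Cre minus that in SIRT1F/F was -0.04 ± 0.16 (adjusted p = 1.00), and that contrast called 0% of tested probes.

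Fcgr3, the low-affinity activating receptor for IgG immune complexes, went the other way with age without passing the test. Its level was 14.62, 14.59 and 14.25 in old LysM-Cre, against 14.36, 14.32 and 14.25 in young LysM-Cre. It was 14.62, 14.63 and 14.53 in old SIRT1F/F, against 14.21, 14.35 and 14.45 in young SIRT1F/F. The SIRT1F/F groups did not overlap, as for 7.4% of tested probes in this direction, and the LysM-Cre groups did. Old minus young was 0.18 ± 0.11 in LysM-Cre (adjusted p = 0.414) and 0.26 ± 0.11 in SIRT1F/F (0.280), and 0.22 ± 0.07 averaged (0.0852). In LysM-Cre the difference was 0.30 without old array 3 and 0.05 with median centring. The average passed with array weights (adjusted p = 0.0366), with trended and robust variances (0.0335), on the deposited values (0.0477) and without old LysM-Cre array 3 (0.28, 0.0203). In TAU/LysM it was 14.51 and 14.40, and in TAU 14.42 and 14.42, within the range of the old and young arrays.

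Fcgr4, an activating receptor that binds IgG2a and IgG2b in mice, varied most among the brighter probes. It read 12.47 and 12.89 in TAU/LysM, against 12.005 and 12.29 in TAU. In old mice it read 12.31, 12.42 and 12.22 with LysM-Cre, against 12.26, 12.43 and 12.11 in SIRT1F/F. In young mice it read 12.62, 12.63 and 11.90 with LysM-Cre, against 12.48, 11.995 and 11.69 in SIRT1F/F. The genotypes overlapped in both ages and were apart in TAU, with 2 arrays a group, as for 25.9% of tested probes in this direction. Cre-carrying minus Cre-negative was 0.53 ± 0.26 in TAU (adjusted p = 0.413), 0.05 ± 0.22 in old (0.980) and 0.33 ± 0.22 in young (0.684) mice, and 0.30 ± 0.13 averaged (interval 0.01 to 0.59, adjusted p = 0.231). The spread between young arrays exceeded 0.7 log2 units in both genotypes.

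Fcer1g, the chain that couples Fcgr1, Fcgr3 and Fcgr4 to Syk, was among the brightest probes on every array, at 64.4% to 92.9% of the highest intensity, where differences may be compressed. It read 14.92 and 15.24 in TAU/LysM and 15.05 and 15.07 in TAU. In old mice it read 15.00, 15.27 and 15.33 with LysM-Cre and 15.08, 15.06 and 15.03 in SIRT1F/F, and in young mice 15.28, 15.28 and 15.19 with LysM-Cre and 15.38, 15.33 and 15.18 in SIRT1F/F. All 5 arrays of TAU and old SIRT1F/F were below all young arrays, as was so for 3.79% of tested probes (10.2% for old against young SIRT1F/F alone), and the other groups overlapped with the young. TAU groups minus young groups was -0.21 ± 0.09 (adjusted p = 0.0883), which passed without TAU/LysM array 2 (-0.29, 0.0397), with median centring (-0.34, 0.0185) and with trended and robust variances (0.0337), and Cre-carrying minus Cre-negative was 0.04 ± 0.07 (interval -0.11 to 0.18, adjusted p = 0.797).

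Fcgr2b, the inhibitory receptor, was read by 3 probes that did not rank the groups alike. The brightest read 13.78 and 13.71 in TAU/LysM, against 13.52 and 13.62 in TAU, with 13.55 to 13.91 over the 12 other arrays. The second read 12.42 and 12.45 in TAU/LysM, against 12.01 and 12.21 in TAU, with 12.13 to 12.52 over the others. The dim probe, whose intensity was 232 to 426, read 7.54 and 7.61 in TAU/LysM, against 7.05 and 7.11 in TAU. TAU/LysM was above TAU by all 3 probes without overlap, as was so in this direction for 25.9% of tested probes, by 0.17 ± 0.11, 0.33 ± 0.12 and 0.49 ± 0.21, and none passed (adjusted p = 0.564, 0.268 and 0.335). In old mice LysM-Cre minus SIRT1F/F was -0.09 ± 0.09, -0.22 ± 0.10 and 0.34 ± 0.17, so the dim probe differed in sign from the others. For the second probe the genotype difference in TAU exceeded that in old mice by 0.54 ± 0.16, which did not pass (adjusted p = 0.272, with 0.202% of tested probes called). The extracellular parts of Fcgr2b and Fcgr3 are closely related, and whether their probes can read each other was not tested, since probe sequences were not used here.

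Fcgrt, which also carries IgG across cell layers, had its lower values in old mice. It read 12.71, 12.92 and 13.28 in old LysM-Cre, against 13.33, 13.41 and 13.26 in young LysM-Cre. It read 13.12, 13.01 and 12.84 in old SIRT1F/F, against 13.45, 13.10 and 13.14 in young SIRT1F/F. The ages overlapped in both genotypes, and TAU/LysM, with 13.20 and 13.05, and TAU, with 13.05 and 12.94, lay inside the range of the old arrays. Old minus young was -0.36 ± 0.14 in LysM-Cre (adjusted p = 0.215), -0.24 ± 0.14 in SIRT1F/F (0.478) and -0.30 ± 0.10 averaged (0.0771); the average passed with array weights (0.0452), with trended and robust variances (0.0465), with median centring (-0.43, 0.0129) and without old LysM-Cre array 3 (-0.37, 0.0201).

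**Figure D2:**
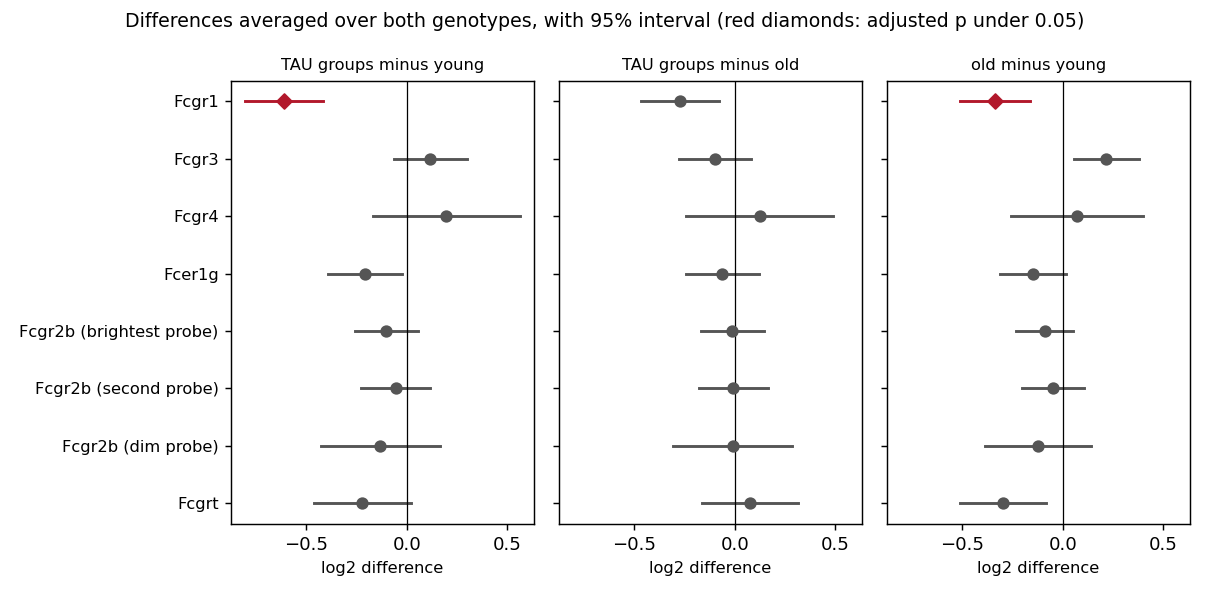
Log2 differences (horizontal axes) of the 8 probes with 95% intervals, averaged over genotypes, for TAU groups minus young, TAU groups minus old, and old minus young; red diamonds passed the adjusted test. Fcgr1 passed against young in the first panel (-0.61) and in old minus young (-0.34), and no other probe passed in these 3 comparisons.

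Carrying Cre moved no member past the test. The median over the 6 genes, by the brightest probe of each, was 0.13 for TAU/LysM minus TAU, -0.04 in old mice, -0.02 in young mice and 0.03 averaged, against 0.01, -0.01, -0.004 and -0.003 over all tested probes. These contrasts called 0 of 8 member probes each, and 1.48%, 0.0184%, 0% and 1.22% of all tested probes. At an unadjusted p under 0.05 stood 2, 0, 0 and 2 of the 8, against 13.2%, 6.6%, 7.94% and 19.9% of tested probes. The smallest adjusted p of the average was 0.0861, for the dim Fcgr2b probe (0.38 ± 0.11), which passed without young SIRT1F/F array 1 (0.45, adjusted p = 0.0287) and with the replicate number as a block (0.0354). The brightest and the second Fcgr2b probe averaged 0.02 ± 0.06 (adjusted p = 0.855) and 0.03 ± 0.06 (0.818). In young mice, where same-numbered arrays deviated together, a paired fit of the 2 young groups alone called 0 of 8 member probes and 0 of all tested probes; the dim Fcgr2b probe had an adjusted p of 0.319 (unadjusted 0.0221) and Fcgr4 of 0.378 (unadjusted 0.0493). The average for Fcgr1 was 0.01 ± 0.07 (interval -0.14 to 0.17), for Fcgr3 -0.04 ± 0.07 (-0.18 to 0.11) and for Fcgrt 0.07 ± 0.09 (-0.12 to 0.26). The genotype difference in TAU minus that in young mice ran from 0.03 to 0.21 over the 6 genes, none called, where 0.306% of tested probes were.

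**Figure D3:**
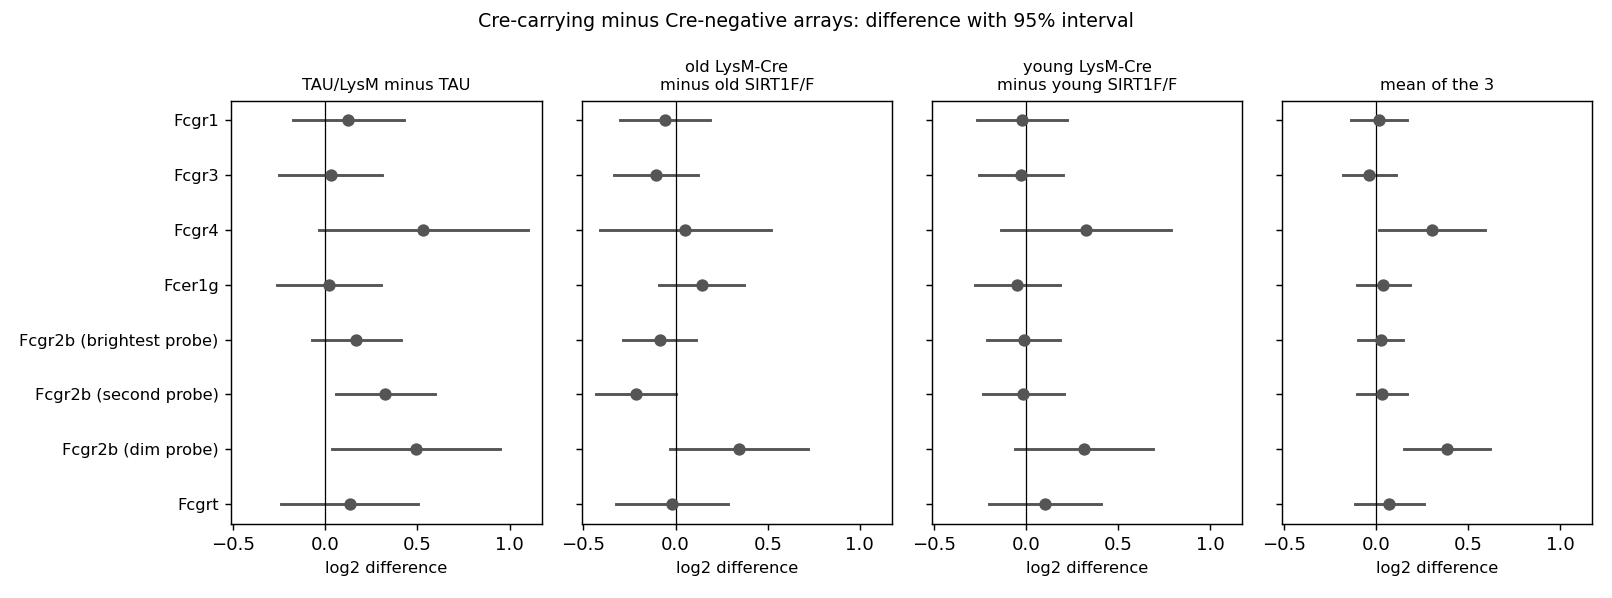
Log2 differences between Cre-carrying and Cre-negative groups (horizontal axes) with 95% intervals for the 8 probes, in TAU, old and young mice and averaged over the 3. No interval belongs to a probe that passed the adjusted test. Fcgr4 averages 0.30 and the dim Fcgr2b probe 0.38, with the brightest and second Fcgr2b probes at 0.02 and 0.03 and Fcgr1 at 0.01.

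Among receptors that share Fcer1g, Clec4e (0.69 ± 0.14, adjusted p = 0.0400) and Clec4d (0.87 ± 0.19, 0.0489), C-type lectins of myeloid cells, were higher in Cre-carrying groups on average, as 2 of the 6 tested in that list, with 0.765% of tested probes called higher. Of 19 tested kinases and adaptors of ITAM signalling, Vav3, an exchange factor for Rac, was higher (0.50 ± 0.10, adjusted p = 0.0326) and none was lower. These calls were kept in 4, 3 and 5 of the 16 fits that left out an array. The cytokine Il10 was also higher (0.77 ± 0.15, adjusted p = 0.0326, kept in 6 of 16). Interferon-stimulated genes higher in TAU/LysM than in TAU included Oas2 (1.73, adjusted p = 0.0257), Irf7 (1.37, 0.0294), Stat2 (1.04, 0.0309) and Mx1 (1.04, 0.0385). That contrast called 1.48% of tested probes, and none of these calls was kept in all 16 such fits. In the Cre average Oas2 (1.05, 0.0198, kept in 14 of 16), Irf7 (0.80, 0.0257, 11 of 16) and Stat2 (0.53, 0.0478, 2 of 16) were higher. The 10 neutrophil markers had a median of 0.65 in the same contrast with 0 called, 3 of 5 tested B cell markers were higher, and 1 of 5 monocyte markers; with an array left out these counts were 0 to 8, 0 to 4 and 0 to 3. All 7 tested oligodendrocyte markers were lower, with a median of -1.19 (4 to 7 with an array left out), and 1 of 6 astrocyte markers was lower. The oligodendrocyte mean was -0.52 in TAU/LysM against 2.84 in TAU. For LysM-Cre against SIRT1F/F it was -0.80 against -0.35 in old and -0.30 against -0.10 in young mice, with overlapping arrays. The difference thus lay mostly between the TAU groups. The part of all these markers in the differences was not tested.

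Other genes of the signalling pathway also passed when TAU groups were set against young groups. Of the 19 kinases and adaptors 6 were lower and 1 higher, with a median of -0.15 against -0.03 over all tested probes. This contrast called 25% of all tested probes, and 13.9% were lower. The lower ones included Syk, the kinase that docks on the Fcer1g motifs (-0.74 ± 0.16, adjusted p = 0.00604), Src (-0.61 ± 0.12, 0.00358), Pik3r1, a regulatory subunit of phosphoinositide 3-kinase (-0.46 ± 0.09, 0.00390), the exchange factor Vav1 (-0.32 ± 0.08, 0.00925) and the kinase Btk (-0.26 ± 0.08, 0.0228). The Src family kinase Fgr was higher (0.98 ± 0.26, adjusted p = 0.0159). Syk averaged 7.33 ± 0.07 in TAU/LysM (SD, n = 2) and 7.18 ± 0.25 in TAU (n = 2), against 8.17 ± 0.26 in young LysM-Cre and 7.82 ± 0.32 in young SIRT1F/F (n = 3 each). The calls of Syk, Src, Pik3r1 and Vav1 were kept in 16 of 16 fits that left out an array, that of Fgr in 14 and that of Btk in 12. Of the 13 other alternatives, Src and Fgr kept their call in 11, Syk, Pik3r1 and Vav1 in 10 and Btk in 7. Calls of this list were also lost without TAU array 1 and without the 5 arrays low in Xist or Eif2s3y, fits that leave 1 array in a group.

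The inhibitory side was divided. Of 14 tested phosphatases and ITIM receptors 2 were higher and 3 lower (median -0.02), where 25% of all tested probes were called and 13.9% lower. The receptors Cd22 (1.22 ± 0.14, adjusted p = 1.05e-04) and Lilrb4a (1.02 ± 0.14, 3.94e-04) were higher. Siglece, a sialic acid receptor (-0.76 ± 0.14, 0.00239), the adaptor Dok3 (-0.33 ± 0.08, 0.0111) and Inpp5d, the phosphatase that Fcgr2b recruits (-0.48 ± 0.12, 0.0134), were lower. Cd22 averaged 10.24 ± 0.28 in TAU/LysM and 10.01 ± 0.35 in TAU, against 8.95 ± 0.29 in young LysM-Cre and 8.86 ± 0.20 in young SIRT1F/F. Without TAU array 1 1 of the list was lower: Dok3 and Inpp5d no longer passed.

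Of 15 tested genes for the actin machinery of phagocytosis 4 were lower and 1 higher (median -0.07): Elmo1 (-0.43 ± 0.09), Nckap1l (-0.29 ± 0.06), Was (-0.36 ± 0.09) and Rac2 (-0.24 ± 0.08) were lower, and the actin-severing gelsolin gene Gsn was higher (0.74 ± 0.21). Of 13 tested cytokines, receptors and factors known to act on IgG receptor genes 4 were lower and 1 higher (median -0.19). Il10 (-1.44 ± 0.19, adjusted p = 2.92e-04), the interferon gamma receptor chain Ifngr1 (-0.45 ± 0.10, 0.00515), Il10ra (-0.42 ± 0.10, 0.00997) and Ifng (-0.63 ± 0.18, 0.0197) were lower, and the transcription factor Irf1 was higher (0.32 ± 0.11, 0.0411). The calls of Il10 and Ifngr1 were kept in 16 of 16 fits that left out an array, and that of Irf1 in 7. Of 15 tested interferon-stimulated genes 10 were higher and 0 lower, Ifit3 by 0.92 ± 0.14 and Isg15 by 0.80 ± 0.13; without TAU array 2 the count was 6. By genotype, 10 were higher in TAU/LysM than in young LysM-Cre and 1 in TAU than in young SIRT1F/F. Their mean was 0.61 to 0.81 in TAU/LysM and -0.24 to 0.02 in TAU, against -0.26 to 0.11 in young LysM-Cre and -0.38 to -0.04 in young SIRT1F/F, so the TAU arrays overlapped the young ones. Although some of these genes passed in TAU/LysM minus TAU, as given above, the test of the difference between the 2 contrasts with young mice called 0 of the 15. These lists were set against the 25% of all probes called in this contrast, and without TAU array 1 the actin list held 2 lower and 0 higher.

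**Figure D4:**
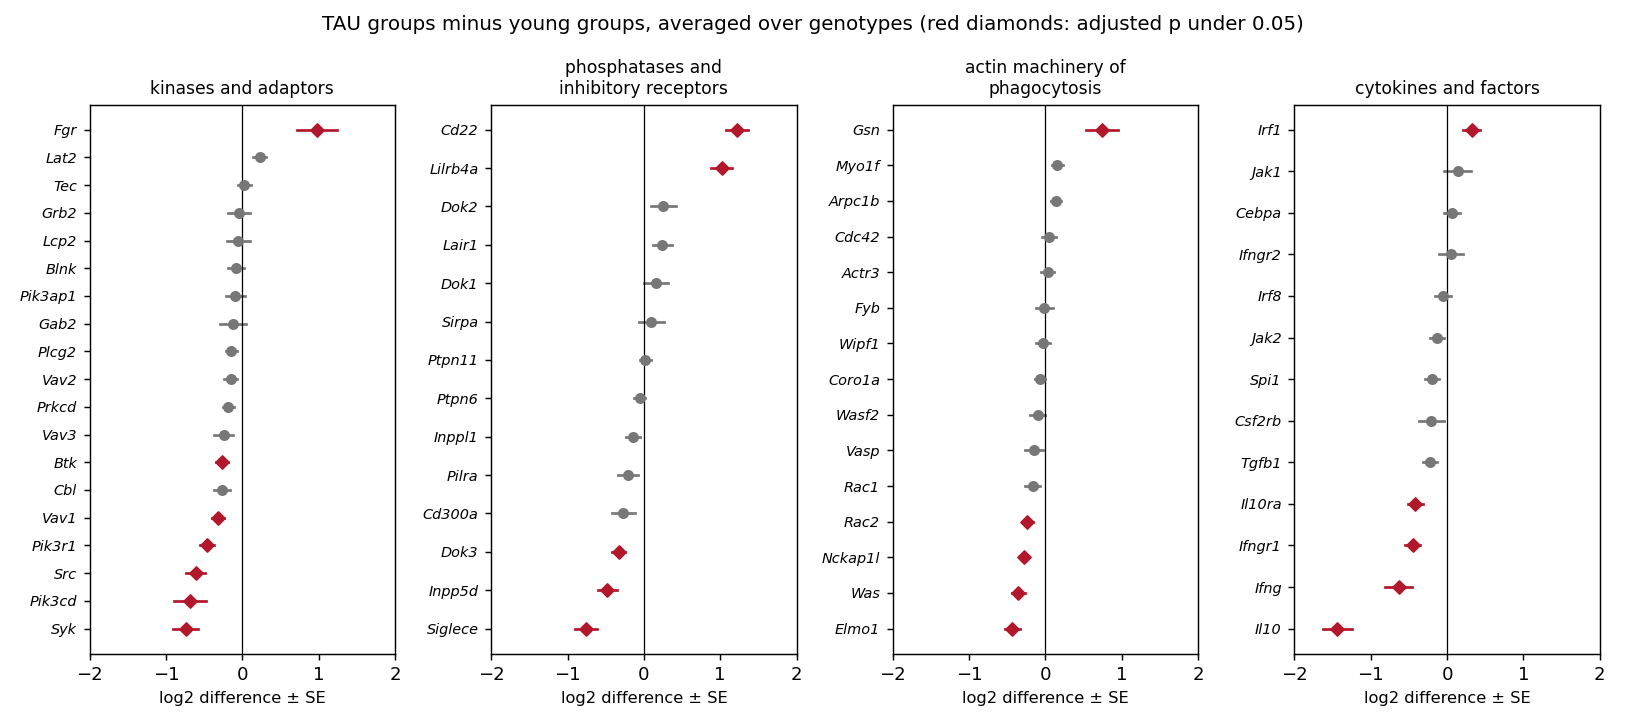
Log2 difference between TAU groups and young groups, averaged over genotypes (horizontal axes), with SE bars, for the tested genes of 4 lists; red diamonds passed the adjusted test. Syk (-0.74), Inpp5d (-0.48), Elmo1 (-0.43) and Il10 (-1.44) lie to the left, and Fgr (0.98), Cd22 (1.22) and Gsn (0.74) to the right.

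With age alone, of the same 19 kinases and adaptors Gab2 (0.92 ± 0.15, adjusted p = 0.00269) and Fgr (0.79 ± 0.23, 0.0493) were higher and Src was lower (-0.54 ± 0.11, 0.00802), averaged over genotypes, 3 of 19 where 9.47% of tested probes were called; the call of Fgr was kept in 4 of 16 fits that left out an array. Il10 was lower by 1.85 ± 0.17 and Ifng by 0.90 ± 0.16 in old mice, and Irf1 higher by 0.61 ± 0.09. Cd22 (0.51, adjusted p = 0.0239) and Gsn (0.75, 0.0238), higher in TAU groups than in young groups, were also higher in old mice. Their calls were kept in 11 and 12 of 16 fits that left out an array. Of the receptors that share Fcer1g, Clec4n (-1.05 ± 0.14) and Klrb1c (-0.33 ± 0.10) were lower and Clec4e (0.67 ± 0.16) higher, and the call of Klrb1c was kept in 3 of 16 such fits. The 8 microglia markers had a median of -0.07, with 1 higher, Itgam (0.96 ± 0.21), which encodes CD11b. Endothelial markers were higher for 4 of 6 (2 to 4 with an array left out), with a mean of 0.18 to 0.41 in old LysM-Cre and 0.08 to 0.54 in old SIRT1F/F, against -0.80 to -0.24 in young LysM-Cre and -1.10 to 0.03 in young SIRT1F/F. Border-associated macrophage markers were lower for 3 of 8, with -0.29 to -0.01 in old LysM-Cre and -0.46 to -0.22 in old SIRT1F/F, against -0.08 to 0.30 in young LysM-Cre and -0.29 to 0.42 in young SIRT1F/F. Their part in the age differences was not tested.

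The genes whose levels followed each member most closely over the 16 arrays, among 10980 compared, were Ankrd17 (Pearson r = 0.967), Dcun1d2 (0.963) and Sema4g (0.937) for Fcgr1 and Ddx58 (0.845), Psmb9 (0.836) and H2-D1 (0.826) for Fcgr4. They were Gcnt2 (0.919) for Fcgr3, Uap1 (0.904) for Fcer1g, Klra4 (0.879, a dim probe at 4.95 to 7.41) for Fcgr2b and Stard8 (0.868) for Fcgrt. These values describe 16 arrays that share their groups and carry no test. Relative to the brightest Fcgr2b probe, with each difference set to its mean over all arrays, Fcgr1 stood at -0.35 and -0.27 in TAU/LysM and -0.27 and -0.26 in TAU, against 0.15, 0.26 and 0.23 in young LysM-Cre and 0.04, 0.27 and 0.36 in young SIRT1F/F. In old mice it stood at -0.25, 0.06 and 0.15 with LysM-Cre and at -0.22, -0.14 and 0.24 in SIRT1F/F. This measure reuses the Fcgr1 levels given above and is no further test of them.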

How the data were processed

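Per-probe intensity of 16 Illumina arrays, as the authors deposited it, was by its values neither background subtracted nor normalized; they also deposited a table of log2 values equal to quantile-normalized log2 intensity within 5e-09; scanner software is not given in the sources used here. Intensities were corrected with normexp (offset 16, fitted on all probes), quantile normalized and taken to log2. A probe was above background where it exceeded the mode of the array's log2 intensity by 1.645 spreads of the values below it; the 16344 of 25697 probes above it on at least 2 arrays were tested. A linear model over the means of the 6 groups, fitted with limma 3.58.1 in R 4.3.3, gave 13 planned contrasts and 3 averages added after values were seen, on 10 residual degrees of freedom. Contrasts that share arrays, such as those against young mice, are not independent. The fit was tested on simulated data. Precision is limited by the number of arrays.

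The members and the 22 gene lists (237 entries, 174 of them tested) were chosen with earlier results of these data known; the immunoglobulin list had no tested gene. The annotation gives 1 symbol for 23978 probes and none for 1719, which stay unnamed; 23962 matched the GRCm38.p6 gene table. Named were every member probe, the 3 genes most correlated with each member, and from each list the called genes, up to 6 of smallest p. Same-numbered arrays of different groups correlated in their deviations at -0.18 to 0.51 (36 pairs). By correlation the numbers paired the 2 young groups (3 pairs, 0.24 to 0.51) and not the 2 old groups with each other (0.05 to 0.07) or the samples as a whole. Old LysM-Cre arrays 2 and 3 also deviated with same-numbered young arrays (0.25 to 0.46), and old LysM-Cre array 1 hardly did (-0.02 and 0.08). The paired fit of the young groups was added after their pairing was seen. Alternatives were other backgrounds, normalizations, filters and variances, a replicate block, marker covariates, the compared groups alone and leaving out each array.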

Additional observations from a re-analysis of the deposited data

How the results depend on the processing

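Fcgr1 stayed lower in TAU and in TAU/LysM than in young mice under all 29 alternatives, at -0.90 to -0.59 and -0.68 to -0.43. Counts of member probes called, 1 for TAU and for TAU/LysM against young, 1 for each of the averages old minus young and TAU minus young, and 0 otherwise, were 0 to 1 with an array left out for TAU, TAU/LysM and the Cre average, 0 to 3 for age and 1 to 2 for the TAU average minus young. They were 3 for TAU, 3 for age and 5 for the TAU average minus young with median centring, which moved the median of all probes by up to 0.11 and turned Fcgr3 in TAU minus young to -0.09, against 0.09. Of all tested probes this centring called 3231 for TAU (1953 in the main fit), 3306 for age (1547) and 5497 for the TAU average minus young (4078). TAU/LysM minus young fell to 0 without a filter on dim probes, with the microglia covariate and with the compared groups alone (adjusted p = 0.0563, 0.244 and 0.0798). It also fell to 0 without the 5 arrays low in Xist or Eif2s3y. That fit kept 1 array each in TAU/LysM, young LysM-Cre and old SIRT1F/F, so calls lost in it cannot be told apart from the loss of arrays. TAU minus young and its average fell to 0 with either marker covariate, and the oligodendrocyte covariate left 0 and 64 of all tested probes called. The oligodendrocyte covariate was far higher on the TAU arrays than on all others, so it could hardly be separated from the TAU group. Age fell to 0 with the oligodendrocyte covariate and without those 5 arrays, and was 2 on deposited values and 3 with array weights or trended variances. The last gave 2 for the TAU average minus young, and it and the deposited values gave 1 for the TAU average minus old members. The replicate block over all groups, whose numbers paired the 2 young groups throughout and other groups in part (12 of 16 arrays correlated best with their own number), called 1 member in the Cre average, the dim Fcgr2b probe (adjusted p = 0.0354), and changed no other member call. Of 3680 member values 3500 kept their side of the threshold and moved little, 140 moved, 19 lost and 21 gained a call and 0 called values turned; 155 uncalled ones changed sign. Of 1971 values of list genes 491 lost their call. The cause was not tested. Fcrl1, an Fc receptor-like gene lower in the TAU average minus young (-0.50, adjusted p = 0.0382), turned to 0.25 with the microglia covariate. Signal limits the precision of Fcer1g, near the top of the scale, and of the dim Fcgr2b probe, near background.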

Other observations

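Of 9 tested genes for Tyrobp, a signalling chain related to Fcer1g, and its receptors, Cd300lb was higher in TAU groups than in young groups (0.96 ± 0.13, adjusted p = 3.09e-04), and Siglech (-0.42 ± 0.06, 5.42e-04) and Sirpb1a (-0.54 ± 0.19, 0.0487) were lower; the call of Sirpb1a was kept in 4 of 16 fits that left out an array. Of 6 tested genes for Fcgrt's partners and recycling, the membrane fusion gene Stx3 was higher (0.59 ± 0.13, adjusted p = 0.00563). In the same contrast 25% of all tested probes were called. Cd300lb was also higher in old than in young mice, averaged over genotypes (0.64, adjusted p = 0.00405), where 9.47% of tested probes were called.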
